A study of Mus musculus with 16 samples.

Results

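Livers of mice that received a high-fat diet in any of 3 regimens were set together against livers of chow-fed mice. The fat-fed side held 12 libraries and the chow side 4, which is all 16 libraries of the series. The question was which genes changed in the same direction in every fat-fed group. All mice were male C57BL/6, a common inbred laboratory strain, bought at 7 weeks of age, and each regimen ran for 16 weeks after 1 week of acclimation. Group H ate the high-fat diet (58% of energy from fat) throughout. Group HC switched between that diet and chow every 2 weeks, and group HK switched between it and a ketogenic diet (90.5% of energy from fat) every 2 weeks. Group N ate chow (11% of energy from fat) throughout. Livers were taken after an overnight fast. The last diet of the switching groups is not stated in the labels, nor is the hour at which livers were taken, and each group has 4 libraries although 6 mice per group are stated. Whether each library came from its own mouse is not stated, so that p-values measure only the spread between these libraries.

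Liver makes cholesterol from acetyl-CoA through the mevalonate pathway, whose genes are switched on by the transcription factor SREBP2 when sterols in the cell are low. Cholesterol leaves the body mainly as bile acids, which hepatocytes make from it. Hepatocytes also inactivate drugs and reactive lipid products with P450 enzymes and with glutathione transferases, which join glutathione to such molecules.

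The deposited values are TPM, a unit in which every library sums to 1000000, so that sequencing depth is unknown. Of 22612 genes, 11450 reached 1 TPM in at least 4 libraries and were tested on the log2(TPM + 1) scale, which understates the change of genes near 1 TPM. Between 10575 and 11695 genes per library reached 1 TPM. The 20 highest genes took 27.1% to 34.3% of TPM in fat-fed libraries and 29.0% to 38.8% in chow libraries. H replicates 1 and 2 and N replicates 2 and 3 lay above 33%, and N replicate 3 also had the highest share of mitochondrial genome transcripts, 18.4% against 8.61% to 13.6% in the other 15 libraries. Results are therefore also given without these 4 libraries. That leaves only replicates 3 and 4 of H and replicates 1 and 4 of N. Where a gene no longer passes there, fewer libraries and the libraries left out cannot be told apart. Of 12 lists of cell type markers, that of hepatocytes had the highest summed level in every library. Its 9 markers summed to between 87100 and 128738 TPM in fat-fed livers and between 95223 and 109147 TPM in chow livers. Red blood cell markers came next, with 522 to 2336 TPM in fat-fed livers and 603 to 896 TPM in chow livers.

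Across the pooled comparison, the genes of cholesterol synthesis and the first enzyme of bile acid synthesis were higher in fat-fed livers, and several glutathione transferases, the retinoic acid hydroxylase Cyp26a1 and the zinc importer Slc39a4 were lower. Genes counted as called had at least a 2-fold difference and a limma p below 0.05 after Benjamini-Hochberg adjustment over all 11450 genes. Of the genes tested, 136 (1.19%) were called, 90 (0.786%) higher and 46 (0.402%) lower. Among the 136 calls, 99 reached 1 TPM in all 16 libraries. With no fold limit, 621 genes (5.42%) passed, 324 (2.83%) higher and 297 (2.59%) lower. The last 2 shares are those against which list members counted below as higher or lower in the pooled comparison are to be read. The number of calls was 207 with a pseudocount of 0.1, 78 with one of 5 and 207 with library quality weights. Rescaling the libraries without mitochondrial genes gave 145 calls, 81 higher and 64 lower, and without N replicate 3 only 57 genes were called higher. Without the 4 libraries above 33%, 103 genes were called, of which 76 were among the 136.

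**Figure D1:**
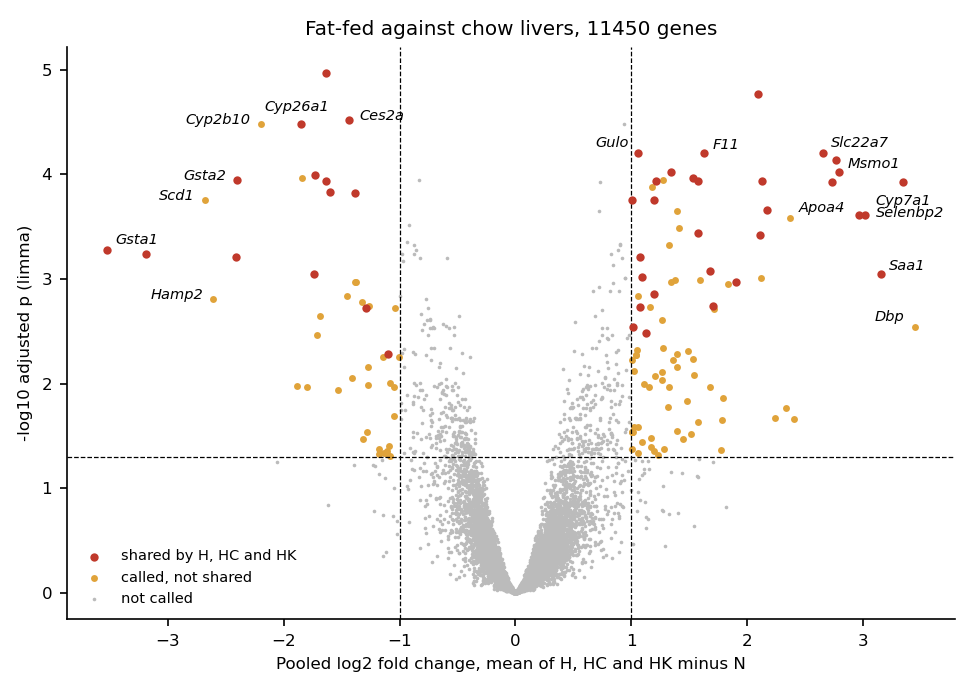
Each of 11450 genes is drawn at its pooled log2 fold change (x axis, mean of H, HC and HK minus N) and the -log10 of its limma adjusted p (y axis), with dashed lines at a 2-fold change and an adjusted p of 0.05. The 44 genes shared by H, HC and HK include Cyp7a1 and Saa1 on the right and Gsta1 and Gsta2 on the left, whereas Scd1, Cyp2b10, Apoa4 and Dbp were called without being shared.

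A gene was counted as shared where it was called in the pooled comparison and also passed at an adjusted p below 0.05, in the same direction, in each of H, HC and HK against N. The 3 comparisons use the same 4 chow libraries, so that their joint passing is a count and has no test of its own. There were 44 shared genes (0.384% of those tested), 30 higher and 14 lower. Of the other 92 pooled calls, 44 passed in 2 regimens, 41 in 1 and 7 in none. HC was the regimen that missed in 39 of the 44 calls that passed in 2. Taken alone, 380 genes (3.32%) passed in H, 104 (0.908%) in HC and 700 (6.11%) in HK, and 0 genes passed in opposite directions in 2 regimens (12 at an unadjusted p below 0.05 in limma). The median own log2 fold change of the 90 higher calls was 1.39 in H, 1.08 in HC and 1.72 in HK. For the 46 lower calls it was -1.59 in H, -1.08 in HC and -1.59 in HK, against medians over all genes of -0.05, -0.04 and 0.15 in the same order of regimens. The number of shared genes depended on single libraries, and was 19 without HC replicate 1, 21 without HC replicate 4, 28 without N replicate 3 and 21 without N replicate 4. It was 104 with library quality weights and 22 without a filter on low values. Without the 4 libraries above 33% it was 18, of which 11 were among the 44, although 38 of the 43 shared genes that could still be tested kept a pooled adjusted p below 0.05. With any 1 library left out, all shared genes that could still be tested kept theirs.

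In 60 of the 136 calls, 38 higher and 22 lower, all 12 fat-fed libraries lay on 1 side of all 4 chow libraries, as did 272 of all genes tested (2.38%). Among the 44 shared genes 38 were separated in this way. The number among calls was 97 without N replicate 1.

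The 10 named shared rises contained 6 enzymes of cholesterol synthesis beside Cyp7a1, Saa1, Selenbp2 and Slc22a7. Cyp7a1 (ENSMUSG00000028240, chromosome 4, 6265612 to 6275633 on mm10), which catalyses the first and limiting step of bile acid formation, was at 55.6, 29.3, 101 and 19.96 TPM in H livers, 105, 59.4, 22.6 and 23.4 TPM in HC livers and 108, 68.2, 61.2 and 31.9 TPM in HK livers, against 4.94, 3.98, 2.29 and 4.71 TPM in N livers. Every fat-fed library was above every chow library, although the fat-fed libraries spread widely among themselves. Its pooled log2 fold change was 3.35 (SE 0.41, limma adjusted p = 0.000117), with own changes of 3.17 in H, 3.17 in HC and 3.69 in HK.

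Selenbp2 (ENSMUSG00000068877, chromosome 3, 94693556 to 94704413), a selenium-binding protein gene with higher expression in male than in female mouse liver, had a lowest, median and highest level of 71.9, 196 and 536 TPM in the 12 fat-fed livers, against 65.8, 19.2, 13.1 and 18.1 TPM in N livers. N replicate 1 stood just under the lowest fat-fed library, HK replicate 4, and the other 3 chow libraries were far below. Its pooled log2 fold change was 3.02 (SE 0.40, limma adjusted p = 0.000242). Slc22a7, an organic anion transporter of the hepatocyte's blood side, was at 12.2, 31.7 and 52.3 TPM (lowest, median, highest) in fat-fed livers and at 5.44, 2.74, 3.52 and 3.80 TPM in N livers. The groups did not overlap, and the pooled log2 fold change was 2.65 (SE 0.29, limma adjusted p = 6.29e-05). Saa1, an acute phase apolipoprotein, ranged widely, between 73.4 and 941 TPM in fat-fed livers, against 53.5, 54.6, 16.0 and 30.1 TPM in N livers. Its pooled log2 fold change was 3.15 (SE 0.48, limma adjusted p = 0.000896), and the reads of Saa1 and its near-identical neighbour Saa2 were divided between them by estimation.

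**Figure D2:**
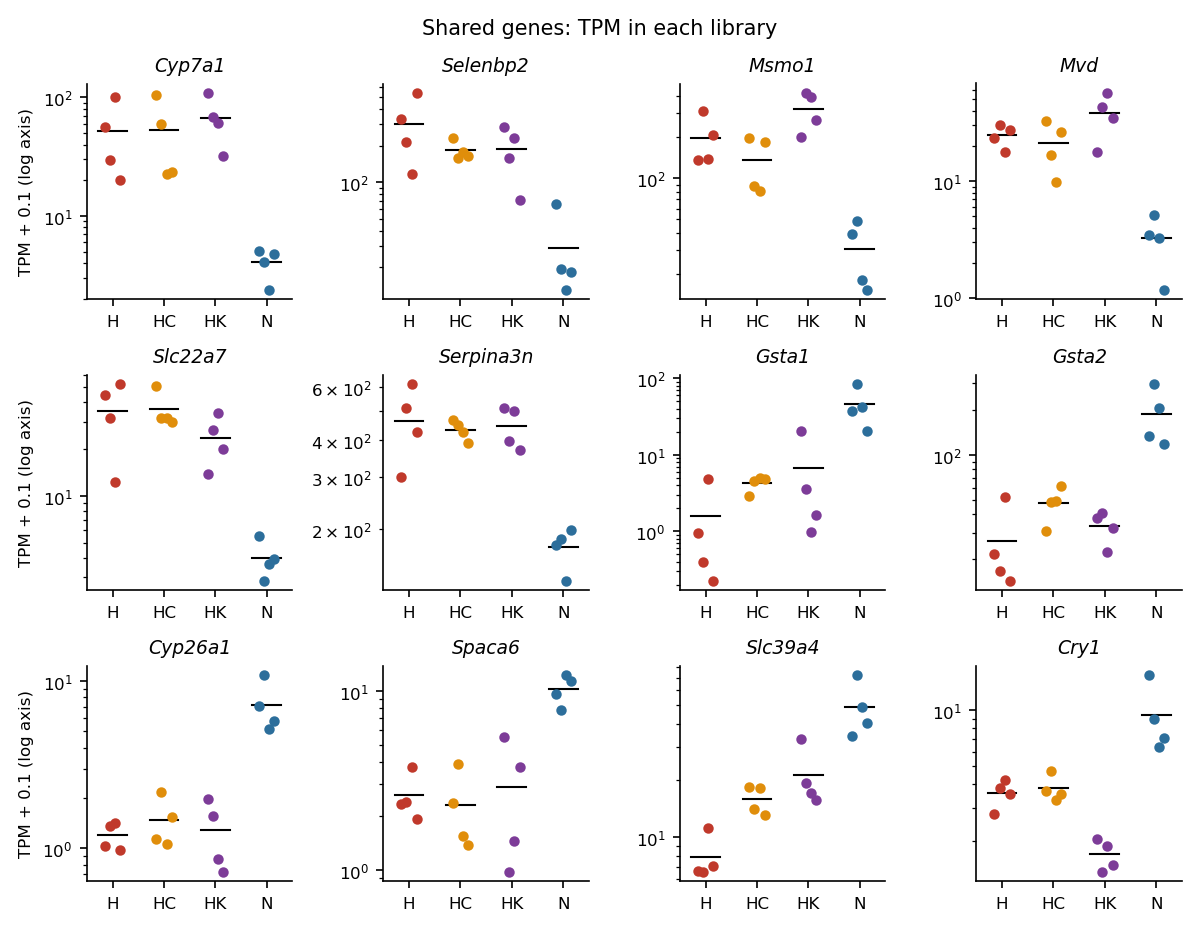
TPM plus 0.1 (y axis, log scale, own range in each panel) of 12 shared genes in each library, by group (x axis: H, HC, HK, N), with a bar at the group mean of 4 libraries. In each panel all 12 fat-fed points lie above (Cyp7a1 to Serpina3n) or below (Gsta1 to Cry1) the 4 chow points.

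Cholesterol synthesis was the list with the most members changed. Of 25 members tested, 23 were higher in fat-fed livers at an adjusted p below 0.05, none was lower, and the median pooled log2 fold change was 1.57, against 0.02 over all genes. The share of all genes that passed as higher was 2.83%. In each regimen's own comparison, 15 members passed as higher in H, 9 in HC and 23 in HK, with medians of 1.51, 1.28 and 1.89, where 1.28%, 0.515% and 4.45% of all genes passed as higher, and 0 members differed between the 3 regimens in the limma F test (8 at an unadjusted p below 0.05). The summed level of the list lay between 1567 and 4149 TPM in the fat-fed libraries and between 718 and 1319 TPM in the chow libraries. Msmo1 (ENSMUSG00000031604, chromosome 8, 64718139 to 64733792), which removes methyl groups from sterol intermediates, was at 136, 309, 138 and 208 TPM in H livers, 196, 87.2, 80.5 and 184 TPM in HC livers and 202, 417, 395 and 268 TPM in HK livers, against 39.2, 49.0, 18.0 and 15.3 TPM in N livers. Its pooled log2 fold change was 2.79 (SE 0.32, limma adjusted p = 9.58e-05). The lowest fat-fed library, HC replicate 3, was above the highest chow library.

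Of the other enzymes, taken here in their order in the pathway, Hmgcs1, which makes HMG-CoA, rose by 1.53 (SE 0.30) on the log2 scale and was called without being shared. Mevalonate kinase (Mvk) averaged 34.2 ± 16.0 TPM in fat-fed livers (SD, n = 12) and 7.01 ± 3.90 TPM in N livers (SD, n = 4), a log2 fold change of 2.13 (SE 0.26). Mevalonate diphosphate decarboxylase (Mvd) averaged 27.9 ± 12.7 TPM in fat-fed livers and 3.16 ± 1.61 TPM in N livers, a log2 fold change of 2.77 (SE 0.31). Idi1, the isomerase of the activated isoprene unit, had 37.7, 98.7 and 224 TPM (lowest, median, highest) in fat-fed livers, against 19.1, 21.95, 4.98 and 6.43 TPM in N livers. Sqle, which oxidises squalene, had 15.2, 44.1 and 95.9 TPM in fat-fed livers, against 6.99, 12.2, 2.89 and 3.36 TPM in N livers. Cyp51, the sterol demethylase, had 50.6, 92.5 and 163 TPM in fat-fed livers, against 27.97, 31.8, 11.1 and 12.9 TPM in N livers. In all of Mvk, Mvd, Idi1, Sqle and Cyp51 the 12 fat-fed libraries were above the 4 chow libraries, and the limma adjusted p lay between 7.23e-05 and 0.000242. Nsdhl, a sterol dehydrogenase, rose by 2.11 (SE 0.29).

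Regulators of the pathway had smaller log2 fold changes. Insig1, which holds SREBP proteins back in the endoplasmic reticulum, rose by 1.19 (SE 0.19, limma adjusted p = 0.0014) on the log2 scale, and Srebf2, which encodes SREBP2, by 0.69 (SE 0.15, limma adjusted p = 0.0129). Ebp and Tm7sf2, a sterol isomerase and a sterol reductase, were the 2 members that did not pass. The chow libraries varied here, and 17 members passed as higher without N replicate 3 and 15 without the 4 libraries above 33%.

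**Figure D3:**
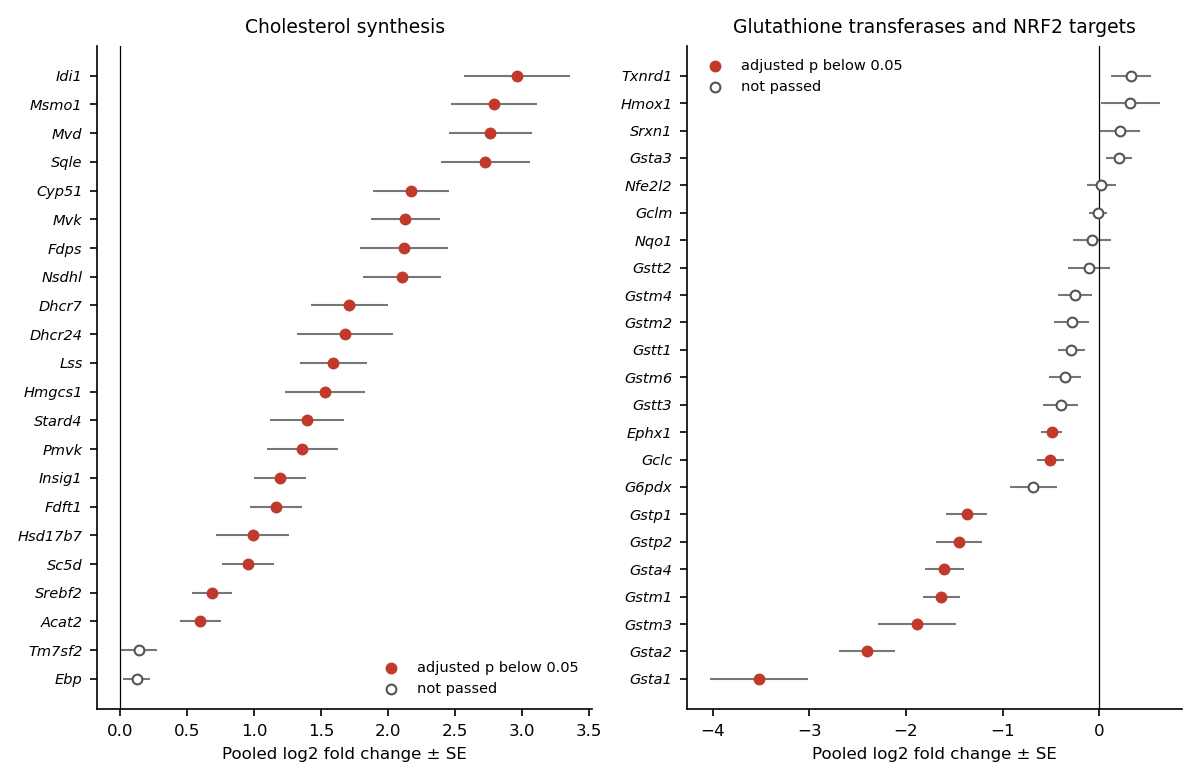
Pooled log2 fold change with its standard error (x axis) for tested genes of 2 lists (y axis), filled where the limma adjusted p was below 0.05. All 22 cholesterol synthesis genes drawn lie above 0 and 20 of them passed, and 9 of 23 glutathione and NRF2 genes passed, all below 0.

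Promoter sequence of some of these genes is shown because SREBP2 acts on them through sterol regulatory elements and the neighbouring CCAAT boxes, at which the factor NF-Y binds. Windows of 250 bases before the RefSeq start (GRCm38.p6) were searched on both strands, and 15 of the 23 raised cholesterol genes were matched, with 18 windows in all. The letters CCAAT occurred in 14 of the 18 windows, of 14 genes, and in 35.3% of the 11449 windows of all tested genes matched. They also occurred in 7 of 8 windows of raised clock genes and in 2 of 3 of lowered ones. Among lowered glutathione and NRF2 genes they were in 5 of 8 windows. Retinoid genes had them in 1 of 3 windows where raised and in 2 of 4 where lowered. A high share was thus not particular to the cholesterol genes. The sterol element TCACNCCAC occurred in 1 of the 18 windows, that of Hmgcs1, and in 1.1% of all. A match describes these letters and is not a site shown to be bound. Below, capitals mark the sterol element in Hmgcs1 (chr13:119690184-119690252, plus strand), and CCAAT or its reverse complement in Mvd (chr8:122443423-122443512, minus strand), Mvk (chr5:114444066-114444268, plus strand) and Nsdhl (chrX:72918382-72918520, plus strand), each written from 5′ to 3′ on the gene's strand.
Hmgcs1: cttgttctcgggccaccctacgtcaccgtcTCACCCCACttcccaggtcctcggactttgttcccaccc
Mvd: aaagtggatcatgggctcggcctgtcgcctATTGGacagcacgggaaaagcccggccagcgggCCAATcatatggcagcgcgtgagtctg
Mvk: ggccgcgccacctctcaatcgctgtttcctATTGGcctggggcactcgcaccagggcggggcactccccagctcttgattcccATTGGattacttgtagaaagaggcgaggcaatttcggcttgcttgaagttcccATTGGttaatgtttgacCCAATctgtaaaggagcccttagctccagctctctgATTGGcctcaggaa
Nsdhl: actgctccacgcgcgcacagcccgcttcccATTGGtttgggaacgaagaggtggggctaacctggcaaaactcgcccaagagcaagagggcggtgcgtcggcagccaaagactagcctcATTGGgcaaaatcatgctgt

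Where 2.83% of all genes passed as higher and 2.59% as lower, 5 of 19 genes of bile acid synthesis and transport were higher and 1 lower. Beside Cyp7a1, these were Cyp8b1, the sterol 12-hydroxylase that sets the share of cholic acid, with 498 ± 115 TPM in fat-fed livers (SD, n = 12) and 233 ± 43.4 TPM in N livers (SD, n = 4), and Cyp7b1 and Akr1d1, further enzymes of the route. Cyp8b1 rose by 1.07 (SE 0.18, limma adjusted p = 0.00186) on the log2 scale, Cyp7b1 by 1.00 (SE 0.20) and Akr1d1 by 0.67 (SE 0.15). Slc10a1, the main bile acid uptake carrier, was at 507, 688 and 767 TPM (lowest, median, highest) in fat-fed livers and at 423, 425, 408 and 415 TPM in N livers, a log2 fold change of 0.67 (SE 0.11). The chow values of this carrier were close together and all below the lowest fat-fed library. Nr0b2, which encodes the bile acid-induced repressor SHP, was the member that fell, with a log2 fold change of -0.89 (SE 0.25, limma adjusted p = 0.0445). In the own comparisons 0 members of this list passed as lower in H, 0 in HC and 1 in HK. Without the 4 libraries above 33%, 2 members stayed higher, and the adjusted p of Cyp8b1 and Cyp7b1 was 0.0904 and 0.195. Without N replicate 1, 8 members were higher. Akr1d1 lost its call without N replicate 3 or N replicate 4, and its largest adjusted p over all alternatives was 0.0812.

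Of 14 glutathione transferases tested 7 fell and none rose. The other 7 (Gsta3, Gstm2, Gstm4, Gstm6, Gstt1, Gstt2 and Gstt3) had log2 fold changes between -0.40 and 0.20 and did not pass. Of 23 genes of glutathione conjugation and NRF2 (a factor that answers oxidative stress), 9 were lower and none was higher, with a median log2 fold change of -0.36 and 2.59% of all genes passing as lower. Of the 9, 7 were transferases and the others were Ephx1 and Gclc, an epoxide hydrolase and the catalytic subunit of glutathione synthesis. Nfe2l2, which encodes NRF2, and the further list members Nqo1, Hmox1, Srxn1, Txnrd1 and Gclm did not pass. Of the 9 lower genes, 7 were matched to promoter windows, 8 in all. The letters TGACNNNGC, a form of the antioxidant element, occurred in 0 of these 8 windows and in 11.6% of the windows of all tested genes. At that share 8 windows are too few for a count of 0 to be a test. Bases further than 250 before the start were not searched. The part of NRF2 in these falls was not tested. Gsta1 (ENSMUSG00000074183, chromosome 9, 78230656 to 78242684) was at 0.857, 0.298, 4.73 and 0.126 TPM in H livers, 2.78, 4.44, 4.92 and 4.77 TPM in HC livers and 20.2, 3.49, 0.872 and 1.52 TPM in HK livers, against 37.0, 83.4, 42.4 and 20.5 TPM in N livers. HK replicate 1 was nearly as high as the lowest chow library, N replicate 4, and the other fat-fed libraries were far below it. The pooled log2 fold change was -3.52 (SE 0.51, limma adjusted p = 0.000532), and the adjusted p was 0.0591 without the 4 libraries above 33%.

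Gsta2, the neighbouring alpha-class gene, was at 14.2, 34.9 and 61.1 TPM (lowest, median, highest) in fat-fed livers and at 133, 296, 205 and 117 TPM in N livers, a log2 fold change of -2.40 (SE 0.29). Gsta4, which detoxifies products of lipid peroxidation, averaged 66.8 ± 18.3 TPM in fat-fed livers (SD, n = 12) and 201 ± 48.5 TPM in N livers (SD, n = 4). Gstm1, an abundant mu-class gene, averaged 1135 ± 294 TPM in fat-fed livers and 3601 ± 1387 TPM in N livers. The 3 genes were each lower in all 12 fat-fed libraries than in any chow library, with limma adjusted p between 0.000113 and 0.000148. Gstp1, of the pi class, fell by 1.37 (SE 0.22) on the log2 scale and was called without being shared, since HC against N had an adjusted p of 0.107. Some genes within these classes are nearly identical and their reads were divided by estimation, so that the split between such copies is uncertain. The predicted genes Gm3776 and Gm10639 were also shared falls. The summed level of the list lay between 5548 and 9177 TPM in fat-fed libraries and between 11387 and 16111 TPM in chow libraries, with no overlap. Without the 4 libraries above 33%, 6 of the 9 stayed lower.

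**Figure D4:**
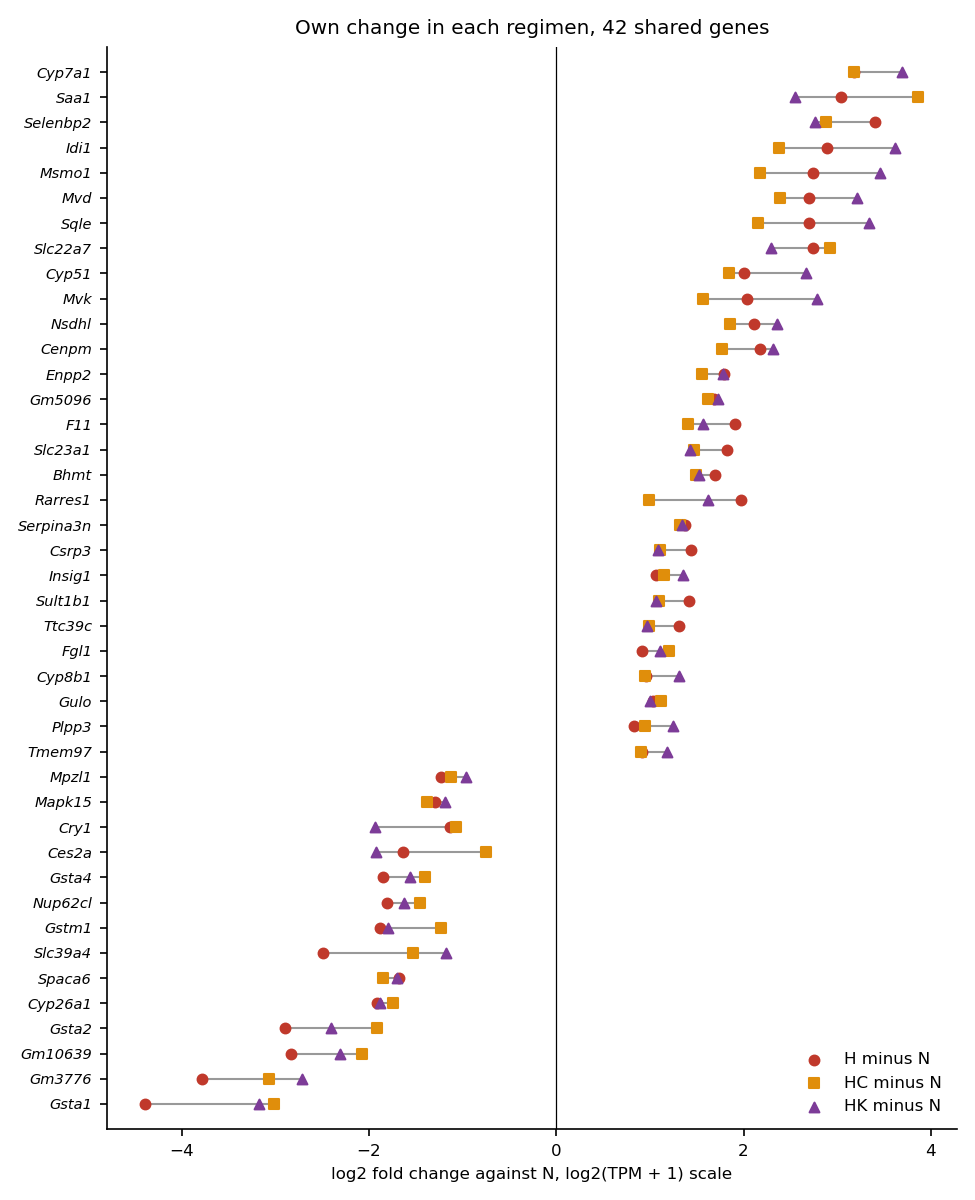
Own log2 fold change (x axis) of H, HC and HK, each minus N, for 42 of the 44 shared genes (y axis, ordered by the pooled change). The 3 symbols of a gene lie on 1 side of 0, as the choice of the genes requires, and HC has the change nearest to 0 in 26 of the 42.

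Among 22 P450 enzymes and their sensors, 3 were higher and 4 lower, against 2.83% and 2.59% of all genes. Cyp3a11, the main drug-metabolising P450 of mouse liver, averaged 1267 ± 615 TPM in fat-fed livers (SD, n = 12) and 4115 ± 800 TPM in N livers (SD, n = 4), a log2 fold change of -1.84 (SE 0.22, limma adjusted p = 0.000108). Cyp3a25 fell by 0.83 (SE 0.10) on the log2 scale. The own changes of Cyp3a11 were -2.29 in H, -1.03 in HC and -2.21 in HK, and those of Cyp3a25 were -1.0, -0.41 and -1.08. HC did not pass in either gene, and the F test of a difference between regimens had an adjusted p of 0.0377 for Cyp3a11 and 0.0167 for Cyp3a25. Cyp2e1, which oxidises ethanol and small solvents, rose by 0.79 (SE 0.14) and Cyp2c54 by 0.71 (SE 0.14). The adjusted p of Cyp2c54 was 0.0533 without N replicate 4, without which 1 member of the list was higher, and that of Cyp2e1 was 0.0789 without the 4 libraries above 33%.

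Of 26 conjugating enzymes and carboxylesterases, 2 were higher and 5 lower. Sult1b1, a sulfotransferase of thyroid hormones and phenols, was a shared rise, with 23.6 ± 4.48 TPM in fat-fed livers (SD, n = 12) and 9.93 ± 3.16 TPM in N livers (SD, n = 4). Sult2a8, a sulfotransferase active on bile acids in mouse liver, rose by 0.89 (SE 0.14). Ces2a, a carboxylesterase, was a shared fall at 76.4, 134 and 276 TPM (lowest, median, highest) in fat-fed livers, against 406, 473, 382 and 365 TPM in N livers. Ces1c and Ugt2b5 fell by less than 2-fold, with log2 fold changes of -0.44 (SE 0.10) and -0.53 (SE 0.12). The 5 lower members became 3 without HK replicate 3, 3 without N replicate 1, 2 without N replicate 2 and 1 without N replicate 4, and Ces1c lost its call without N replicate 2 or 4 and Ugt2b5 without N replicate 1 or 4 (largest adjusted p over all alternatives 0.0772 and 0.0625).

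Cyp26a1 (ENSMUSG00000024987, chromosome 19, 37697798 to 37701536), which hydroxylates and so inactivates retinoic acid, was at 0.933, 1.27, 1.31 and 0.878 TPM in H livers, 1.04, 2.06, 0.962 and 1.44 TPM in HC livers and 1.88, 1.47, 0.760 and 0.627 TPM in HK livers, against 7.02, 10.7, 5.08 and 5.66 TPM in N livers. All fat-fed libraries were below all chow libraries, and the 3 regimens lay within 1 narrow range. The pooled log2 fold change was -1.85 (SE 0.18, limma adjusted p = 3.27e-05), with own changes of -1.91, -1.75 and -1.89 in H, HC and HK. Of 13 retinoid genes tested, 2 were higher and 2 lower. Dhrs3, a retinal reductase, fell by 0.44 (SE 0.10), and Rarres1, a gene first described as retinoid-responsive in human skin, was a shared rise with 93.1 ± 37.9 TPM in fat-fed livers (SD, n = 12) and 29.6 ± 4.15 TPM in N livers (SD, n = 4). Retinoic acid receptors bind pairs of short sites spaced by a few bases, and the Cyp26a1 promoter is the classical example. The letters searched were 1 exact form of such a pair, that of the Cyp26a1 site itself with 5 bases left open. Looser forms were not searched. A match in Cyp26a1 and a small share of windows were therefore given by the choice of letters and are no test. The letters GTTCA, then 5 bases, then AGTTCA, on either strand, occurred in 2 of 11449 windows (0.0175%), and Cyp26a1 held 1 of them, shown in capitals as its reverse complement (chr19:37697746-37697797, plus strand).
Cyp26a1: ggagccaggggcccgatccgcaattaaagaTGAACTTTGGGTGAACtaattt

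Slc39a4, the zinc importer ZIP4, fell in each regimen but not by 1 size. It was at 6.57, 6.48, 11.1 and 6.94 TPM in H livers, 18.4, 14.0, 18.1 and 13.0 TPM in HC livers and 32.9, 19.2, 17.1 and 15.7 TPM in HK livers, against 34.4, 72.0, 49.1 and 40.4 TPM in N livers. H was lowest, and the F test of a difference between regimens had an adjusted p of 0.0344. Of 16 genes of zinc and iron handling, 3 were lower and none was higher. Hamp2, a hepcidin gene, had a pooled log2 fold change of -2.61 (SE 0.43, limma adjusted p = 0.00155), with own changes of -1.80 in H, -1.34 in HC and -4.69 in HK, of which only the last passed. The pooled adjusted p of Hamp2 was 0.0797 without the 4 libraries above 33%.

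Clock genes changed in both directions, with wide spread between replicates. Of 19 members, 7 were higher and 3 lower, against 2.83% and 2.59% of all genes, with a median log2 fold change of 0.73. Own comparisons against N had 0 members higher in H, 0 in HC and 8 in HK, with medians of 0.46, 0.52 and 1.07. Of all genes, 1.28%, 0.515% and 4.45% passed as higher there. As lower, 1 member passed in H, 2 in HC and 3 in HK, where 234, 45 and 191 of all 11450 genes did. In HC 10 members had an unadjusted p below 0.05 in limma, in either direction. In the limma F test 0 members differed between regimens (2 at an unadjusted p below 0.05). Dbp (ENSMUSG00000059824, chromosome 7, 45705088 to 45710203), an output factor of the clock, was at 14.2, 3.61, 24.5 and 149 TPM in H livers, 18.1, 18.6, 20.8 and 83.4 TPM in HC livers and 63.6, 50.3, 78.8 and 167 TPM in HK livers, against 1.62, 1.57, 4.99 and 2.54 TPM in N livers. The fat-fed and chow ranges overlapped through H replicate 2 and N replicate 3. The pooled log2 fold change was 3.45 (SE 0.61, limma adjusted p = 0.00289), and only HK against N passed on its own. Cry1, a repressor of the clock, was a shared fall at 1.26, 3.34 and 4.62 TPM (lowest, median, highest) in fat-fed livers, against 15.3, 8.94, 6.26 and 6.97 TPM in N livers. Nr1d1 and Per3, 2 other repressors, rose by 1.40 (SE 0.27) and 1.54 (SE 0.31), and Npas2, an activator, fell by 1.27 (SE 0.25). Nr1d1 and Per3 passed on their own in HK alone. Per3 was at 0.911, 2.81 and 7.99 TPM (lowest, median, highest) in fat-fed livers and 0.290 to 0.533 TPM in N livers. Npas2 was at 0.0683, 0.348 and 2.60 TPM in fat-fed livers and 1.89 to 4.63 TPM in N livers, so that both were near the floor on 1 side. A tissue sampled at another hour also has other levels of clock genes, and since the hour is not stated, diet and hour of collection cannot be told apart. The 7 higher members became 4 without any of N replicates 2, 3 and 4, and 4 without the 4 libraries above 33%, where Npas2 had an adjusted p of 0.0650. Dbp and its relatives bind the letters TTATGNAA, which occurred in 2.11% of all windows and, among the 8 windows of the 7 raised clock genes, in that of Per3, shown with both copies in capitals (chr4:151044786-151044900, minus strand).
Per3: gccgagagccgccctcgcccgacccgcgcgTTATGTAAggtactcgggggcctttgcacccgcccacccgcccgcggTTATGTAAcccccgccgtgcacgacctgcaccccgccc

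Of 22 acute phase genes, 4 were higher and 1 lower, against 2.83% and 2.59% of all genes. Serpina3n, a protease inhibitor, was a shared rise of almost 1 size in each regimen, at 299, 512, 613 and 423 TPM in H livers, 464, 447, 425 and 388 TPM in HC livers and 512, 395, 498 and 368 TPM in HK livers, against 177, 185, 134 and 198 TPM in N livers. Its log2 fold change was 1.37 in H, 1.32 in HC and 1.35 in HK (pooled 1.35, SE 0.15, limma adjusted p = 9.59e-05), and no fat-fed library reached down to the chow range. Saa2 and haptoglobin (Hp) rose by 2.34 (SE 0.54) and 0.49 (SE 0.11). Saa2 lost its call without N replicate 3 or 4 (adjusted p 0.0737 and 0.0740) or without the 4 libraries above 33% (0.111) and Hp without N replicate 2 or 3 (largest adjusted p over all alternatives 0.184), so that 2 members were higher without N replicate 3. Of 23 complement and coagulation genes, 2 were higher and 1 lower, against the same shares of all genes (2.83% and 2.59%). F11, coagulation factor XI, was a shared rise with 46.3 ± 12.6 TPM in fat-fed livers (SD, n = 12) and 14.2 ± 3.87 TPM in N livers (SD, n = 4), a log2 fold change of 1.63 (SE 0.17, limma adjusted p = 6.29e-05). C4b rose by 0.63 (SE 0.17) and lost its call in 12 of the 27 alternatives, among them those without N replicate 2, 3 or 4.

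Bhmt, which remethylates homocysteine with betaine, was at 2270, 3384 and 5372 TPM (lowest, median, highest) in fat-fed livers, against 1338, 1640, 888 and 898 TPM in N livers. It was a shared rise without overlap, with a log2 fold change of 1.57 (SE 0.22, limma adjusted p = 0.000365). Of 25 genes of amino acid breakdown and the urea cycle, 3 were higher and 2 lower, and only Bhmt stayed higher without N replicate 3 or 4. The others were Oat, an ornithine enzyme, and Bckdhb, of branched-chain amino acid breakdown, which were higher, and the serine dehydratases Sds and Sdsl, which were lower. On their own, Oat and Bckdhb passed in HK alone, Sdsl in H alone and Sds in no regimen. Oat lost its call without N replicate 3 or 4 (adjusted p 0.0712 and 0.0830) or without the 4 libraries above 33% (0.152), Bckdhb without N replicate 2, 3 or 4 (0.0879, 0.0730 and 0.0548) or without the 4 libraries (0.128), Sdsl without N replicate 4 (0.0868) or without the 4 libraries (0.0516) and Sds in 18 of the 27 alternatives. Where 2.83% of all genes passed as higher and 2.59% as lower, 5 of 19 genes with male-biased liver expression were higher and 2 lower. They were Selenbp2, Cyp7b1, Serpina1e, Hsd3b5 and Mup7, and Elovl3 and Mup20 in the other direction. Elovl3, a fatty acid elongase, fell by 1.71 (SE 0.31) and Serpina1e rose by 1.20 (SE 0.25, adjusted p 0.0775 without the 4 libraries above 33%). Hsd3b5, a steroid dehydrogenase, rose by 1.79 (SE 0.40), which was lost without N replicate 2, 3 or 4 (adjusted p 0.0754, 0.0571 and 0.0629) and had a log2 fold change of 1.00 (adjusted p 0.333) without the 4 libraries above 33%. Hsd3b5 passed on its own in H alone. The count of higher members of this list was 3 without N replicate 2, 3 or 4 and 8 without N replicate 1, and it was 1 without the 4 libraries above 33%.

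Genes of malonyl-CoA and fatty acid synthesis were examined because the study's title concerns acetyl-CoA carboxylase 1 and malonylation. Acaca, which encodes acetyl-CoA carboxylase 1, averaged 11.0 ± 2.91 TPM in fat-fed livers (SD, n = 12) and 8.17 ± 3.87 TPM in N livers (SD, n = 4), and the pooled log2 fold change of 0.43 (SE 0.22, limma adjusted p = 0.296) did not pass. Acacb, the mitochondrial form, averaged 6.35 ± 1.78 TPM in fat-fed livers and 7.99 ± 4.55 TPM in N livers, with a limma adjusted p of 0.768 and a sign that changed when N replicate 1 or 2 was left out. Mlycd, which breaks down malonyl-CoA, had a log2 fold change of -0.05 (limma adjusted p = 0.849), and Sirt5, which removes malonyl groups from proteins, had 0.44 (limma adjusted p = 0.0611). Cpt1a, the malonyl-CoA-inhibited gate of mitochondrial fatty acid entry, had a pooled log2 fold change of 0.57 (limma adjusted p = 0.192) and Srebf1, which encodes SREBP1, had 0.58 (limma adjusted p = 0.141). The list of malonyl-CoA and malonylation genes held Acaca, Acacb, Mlycd, Sirt5, Cpt1a, Fasn, Acsf3 and Mcat. In the own comparisons, 1 of these 8 passed as higher in H (Fasn), 0 in HC (1 at an unadjusted p below 0.05 in limma) and 5 in HK. Of all genes, 1.28% passed as higher in H, 0.515% in HC and 4.45% in HK. The 5 in HK were Cpt1a (1.19, SE 0.29, limma adjusted p = 0.0221), Acsf3 (0.85, adjusted p = 0.00733), Sirt5 (0.68, adjusted p = 0.0160), Mcat (0.65, adjusted p = 0.0359) and Fasn (1.11, adjusted p = 0.0357), and in the F test between regimens 0 members passed (3 at an unadjusted p below 0.05). The 5 became 2 to 3 without HK replicate 1, 2 or 3 or N replicate 4, 1 without N replicate 3, 2 without the 4 libraries above 33% and 2 without a filter on low values. In the pooled comparison Fasn, fatty acid synthase, was the 1 of the 8 that passed, at 18.7, 43.4 and 57.8 TPM (lowest, median, highest) in fat-fed livers, against 19.2, 23.0, 12.8 and 14.2 TPM in N livers. Its log2 fold change was 1.15 (SE 0.25, limma adjusted p = 0.0108), and it did not pass without N replicate 3 (adjusted p = 0.0548) or N replicate 4 (adjusted p = 0.0559), nor without the 4 libraries above 33% (adjusted p = 0.0771). Of 19 genes of fatty acid synthesis and desaturation, 4 were higher (Fasn, Acss2, Fads1 and Fads2) and 2 lower (Scd1 and Elovl3). The 4 became 0 without N replicate 3 or 4, and 1 without the 4 libraries above 33%.

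In 17 of the 136 calls the 3 regimens differed from each other at an adjusted p below 0.05 (F test in the same limma fit, which leaves the chow mean out of the contrast but not the chow libraries out of the spread), against 79 of all genes (0.69%). Among the 44 shared genes there were 2, Ces2a and Slc39a4, and 9 at an unadjusted p below 0.05. A p that misses the threshold does not show that the regimens act alike. In pairs of regimens, 2 pooled calls differed in H against HC (0.0262% of all genes did), 3 in HK against H (0.0786% of all genes) and 18 in HK against HC (0.847% of all genes). The 17 became 9 without HC replicate 2, 10 without HC replicate 3, 11 without HC replicate 4, 11 without HK replicate 2 and 9 without HK replicate 4.

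The pooled value of such genes is a mean of unlike regimens. Scd1, the stearoyl-CoA desaturase, was at 716, 1150, 907 and 771 TPM in H livers, 1583, 814, 854 and 916 TPM in HC livers and 66.7, 11.0, 19.7 and 15.8 TPM in HK livers, against 2867, 2373, 1123 and 1214 TPM in N livers. Own log2 fold changes were -1.0 in H, -0.80 in HC and -6.24 in HK, of which HK alone passed. HK lay below H by a log2 difference of -5.24 (limma adjusted p = 5.41e-06) and below HC by one of -5.44 (F test adjusted p = 2.09e-06). With the 12 fat-fed libraries as 1 group, Scd1 did not pass (limma adjusted p = 0.242).

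Cfd, complement factor D or adipsin, was at 1.88, 0.723, 0.848 and 3.34 TPM in H livers, 1.33, 0, 0.173 and 0.231 TPM in HC livers and 12.8, 16.1, 42.0 and 27.5 TPM in HK livers, against 0, 0, 0.436 and 0.447 TPM in N livers. HK exceeded H by 3.21 and HC by 4.10 on the log2 scale (F test adjusted p = 2.28e-05), and with 1 fat-fed group the gene did not pass (limma adjusted p = 0.265). Adipocytes also make Cfd. Of 7 adipocyte markers, Cfd among them, 3 were tested. Cfd and Cidec, a lipid droplet protein, passed as higher in HK against N and in HK against HC (Cidec 3.03 in HK, 0.71 in H and -0.41 in HC, F test adjusted p = 0.000743), and Fabp4 passed in neither. Adipoq, Plin1, Retn and Lep were under 1 TPM in all libraries and Lep was listed at 0. The summed level of the 7 was 61.7 to 110 TPM in HK, 15.6 to 36.9 TPM in H, 8.05 to 14.0 TPM in HC and 11.1 to 17.6 TPM in N, and without Cfd it was 29.8 to 97.5 TPM in HK, 14.5 to 36.1 TPM in H, 7.83 to 13.8 TPM in HC and 11.1 to 17.2 TPM in N. The part of adipocytes in these results was not tested. Cyp2b10, a P450 enzyme that foreign compounds induce through the receptor CAR, was at 0.454, 1.39, 0.480 and 0.411 TPM in H livers, 6.18, 12.3, 8.33 and 7.71 TPM in HC livers and 0.0396, 0.224, 0.635 and 0.308 TPM in HK livers, against 21.98, 8.86, 10.1 and 8.39 TPM in N livers. HC overlapped chow and H and HK did not (F test adjusted p = 2.43e-05), and with 1 fat-fed group the limma adjusted p was 0.0511.

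Apoa4, an apolipoprotein of triglyceride-rich particles, showed a similar split in the other direction. It was at 3691, 3490, 4964 and 2887 TPM in H livers, 822, 748, 388 and 467 TPM in HC livers and 7053, 2448, 1505 and 2114 TPM in HK livers, against 221, 398, 290 and 568 TPM in N livers. H exceeded HC by 2.67 (limma adjusted p = 0.00992) and HK exceeded HC by 2.23 (limma adjusted p = 0.00734) on the log2 scale. Slc35f2, a solute carrier, averaged 3.09 ± 0.55 TPM in H, 1.06 ± 0.30 TPM in HC, 5.75 ± 0.85 TPM in HK and 0.62 ± 0.40 TPM in N (SD, n = 4 each; F test adjusted p = 0.00032). Ces2a averaged 132 ± 28.9 TPM in H, 241 ± 23.9 TPM in HC, 108 ± 21.7 TPM in HK and 406 ± 47.1 TPM in N (SD, n = 4 each), with HC between chow and the other 2 regimens (F test adjusted p = 0.00471). HK exceeded HC in Slc35f2 by 1.72 and lay below it in Ces2a, with a log2 difference of -1.17.

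**Figure D5:**
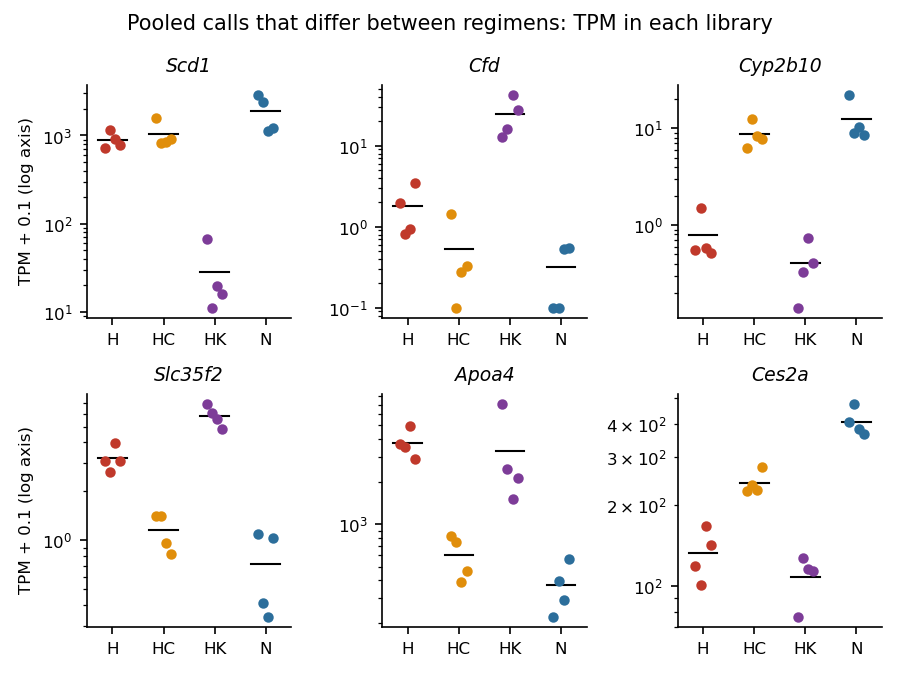
TPM plus 0.1 (y axis, log scale, own range in each panel) of the 6 pooled calls with the smallest F test adjusted p, in each library by group (x axis: H, HC, HK, N), with a bar at the group mean. Scd1 stands apart in HK alone. Cfd is highest in HK, and its H libraries (0.723 to 3.34 TPM) also lie above the chow libraries (0 to 0.447 TPM). In Cyp2b10 and Apoa4 the HC libraries lie near the chow libraries.

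In the remaining lists few members passed. Apoa1, the main protein of HDL, was at 14825, 17054 and 21464 TPM (lowest, median, highest) in fat-fed livers, against 7867, 11722, 10298 and 10111 TPM in N livers, a log2 fold change of 0.82 (SE 0.12, limma adjusted p = 0.000579). It and Apoa4 were the members of 20 lipoprotein genes that passed. Of 8 genes of ketone body metabolism 2 were higher and 1 lower. Acat1, a thiolase, rose by 0.77 (SE 0.16, adjusted p 0.0574 without the 4 libraries above 33%) and Bdh2 fell by 0.82 (SE 0.12), with own changes of -0.74 in H, -0.42 in HC and -1.31 in HK for Bdh2. Of 33 genes of fatty acid oxidation and PPAR alpha targets only Hadh (0.53, SE 0.12) passed as higher and only Angptl4 (-0.67, SE 0.14) as lower. In the own comparisons 11 of the 33 passed as higher in HK, against 0 in H and 0 in HC (2 and 0 at an unadjusted p below 0.05 in limma). Of all genes, 4.45% passed as higher in HK, 1.28% in H and 0.515% in HC. As lower, 1 member passed in H, 0 in HC and 0 in HK (6, 9 and 2 at an unadjusted p below 0.05 in limma). Of all 11450 genes, 234, 45 and 191 passed as lower in H, HC and HK. In the F test 6 members differed between regimens, a share to be read against 0.69% of all genes. Among them were Fgf21, a hormone the fasted liver secretes, with 2.13 (SE 0.42) in HK, 0.79 in H and -0.74 in HC (F test adjusted p = 0.0079), and Acadm, the medium-chain acyl-CoA dehydrogenase, with 0.79 (SE 0.14) in HK, 0.14 in H and -0.08 in HC (F test adjusted p = 0.0143). The 11 became 7 without N replicate 3, 6 without the 4 libraries above 33% and 17 with library quality weights. The 6 became 1 without HC replicate 2 or HK replicate 4, 2 without HK replicate 2, 3 without HC replicate 4, 3 with median ratio scaling, 2 with the replicate block, 11 without the 4 libraries above 33% and 18 with library quality weights. Hadh lost its call without N replicate 3 and Angptl4 without N replicate 2 or 4 (largest adjusted p over all alternatives 0.0691 and 0.114). G6pc, the last enzyme of glucose release, had a log2 fold change of -1.53 (SE 0.33, limma adjusted p = 0.0115), and an adjusted p of 0.0629 without N replicate 2. Of 15 genes of gluconeogenesis and fasting, 1 was higher (Pcx) and 2 lower (G6pc and Pck1), and Pcx lost its call without N replicate 2, 3 or 4 (adjusted p 0.0781, 0.108 and 0.0568). On their own, G6pc and Pcx passed in HK alone.

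Among 19 genes of glycolysis, Pfkfb1 and the glucose carrier Slc2a2 were higher, by 0.75 (SE 0.14) and 0.58 (SE 0.13). Of 21 genes of lipid droplets and triglyceride storage, Lipe and Cd36 passed as higher, with losses of the call in 11 and 16 of the 27 alternatives, and Cd36 differed between regimens (own changes of 0.79 in H, -0.07 in HC and 1.81 in HK, F test adjusted p = 0.00997). Of 19 interferon response genes 5 were higher (Ifi27, Gbp3, Oas1a, Usp18 and Irf7), by 0.54 to 0.82 on the log2 scale. That count was 3 without HC replicate 4, HK replicate 2 or N replicate 4 and 1 without N replicate 3. In the own comparisons 1 member of the list passed as higher in H, 0 in HC (1 at an unadjusted p below 0.05 in limma) and 10 in HK (6 without HK replicate 3, 16 with library quality weights). Of all genes, 1.28% passed as higher in H, 0.515% in HC and 4.45% in HK. Of 19 genes of endoplasmic reticulum stress 1 was higher (Pdia4) and 1 lower (Sesn2), and of 18 immediate early and heat shock genes Gadd45b and Hspb1 were lower. Pdia4, Sesn2 and Hspb1 lost their calls in 10, 18 and 17 of the 27 alternatives, and Gadd45b without N replicate 2 (adjusted p = 0.0541) or N replicate 3 (adjusted p = 0.0515). Without the 4 libraries above 33% Gadd45b had a log2 fold change of -0.80 (adjusted p = 0.241), against -1.27 with all libraries. Gadd45b passed on its own in H alone. In limma 0 members passed among 17 genes of oxidative phosphorylation, 12 of collagen and fibrosis, 7 of the cell cycle and 6 with female-biased expression, and 4, 1, 3 and 2 of them had an unadjusted p below 0.05.

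Other shared genes belonged to no list. Beside those named above, the shared rises included Cenpm, a centromere protein, Enpp2, which makes lysophosphatidic acid, Slc23a1, a vitamin C carrier, Gulo, which completes vitamin C synthesis in mice, Csrp3, Ttc39c, Fgl1, Plpp3, Tmem97 and the predicted gene Gm5096. The shared falls were Spaca6, Mapk15, Nup62cl and Mpzl1. Spaca6, known for its part in sperm and egg fusion, was at 0.881, 2.25 and 5.42 TPM (lowest, median, highest) in fat-fed livers, against 9.51, 7.70, 12.1 and 11.2 TPM in N livers. Mapk15, an atypical MAP kinase, averaged 10.8 ± 3.40 TPM in fat-fed livers (SD, n = 12) and 27.5 ± 8.25 TPM in N livers (SD, n = 4). Neither gene overlapped between fat-fed and chow livers.

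Markers of other liver cells were read as whole lists, and in bulk tissue fewer cells of a type and less RNA per cell cannot be told apart. In limma 0 of 10 Kupffer cell markers passed, and 1 had an unadjusted p below 0.05. All 10 had a pooled log2 fold change above 0, with a median of 0.54, and their summed level was 195 to 673 TPM in fat-fed livers and 180 to 432 TPM in N livers. Their part in the other results was not tested. Of 7 markers of recruited macrophages Cd9 was lower. In limma 0 markers passed for stellate cells (10 tested), sinusoidal endothelium (10), cholangiocytes (4), neutrophils (3), T and NK cells (3), the B and plasma lineage (6), red blood cells (6) and exocrine pancreas (2), and 5 of these 44 had an unadjusted p below 0.05. Of 9 hepatocyte markers Apoa1 was higher and Ttr and Pck1 were lower. The pancreatic enzyme genes Amy2a5, Cpb1, Pnlip, Prss1 and Prss2 were listed at 0 in every library.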

How the data were processed

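RNA of mouse liver was sequenced in 16 libraries (H, HC, HK and N, 4 each). Per the series' design text, the authors trimmed 150 bp paired reads, aligned them with HISAT2 to mm10 and calculated expression with RSEM 1.1.17 on Ensembl release 96, and compared pairs of groups with edgeR 3.14.0. That text names FPKM, but the columns the authors deposited each sum to 1000000, so the values are TPM. TPM keeps no depth, and only the number of libraries limits the precision that can be stated. A gene taking a larger share of TPM lowers all others.

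Genes that reached 1 TPM in 4 or more libraries were transformed as log2(TPM + 1) and fitted with limma 3.58.1 (R 4.3.3, intensity trend, a mean for each of the 4 groups, no covariates). The contrast was the mean of the H, HC and HK means minus the N mean, with Benjamini-Hochberg adjustment over all 11450 genes. All p-values given as adjusted come from this fit or its alternatives, and the F test (2 degrees of freedom) asked whether H, HC and HK were equal. Members of 27 gene lists and 12 marker lists count as changed where the adjusted p was below 0.05, whatever the fold. The comparison, the lists and the tests were chosen with earlier results of these data known. Of the gene identifiers, 22505 (99.53%) were found in GENCODE vM21 on GRCm38, from which positions come. Promoter windows are from RefSeq.

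Named genes were the 10 largest rises and 10 largest falls among shared genes with a mean of at least 1 TPM (predicted genes left out), the 2 members of smallest adjusted p per list (5 in lists with 5 or more passed), the 6 calls of smallest F test p, and Acaca, Acacb, Mlycd, Sirt5, Fasn, Srebf1, Cpt1a and Scd1. Other list members and other shared genes were named after their values were seen. A few genes enter the counts but are not reported here by name. Alternatives were 3 other choices of model, 2 pseudocounts, 2 filters, 2 scalings, the replicate block, leaving out the 4 libraries with over 33% of TPM in their 20 highest genes, and leaving out each library, 27 in all. Same-numbered libraries of 2 groups were checked for pairing.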

Additional observations from a re-analysis of the deposited data

Results flagged for a closer look

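In 13 named genes the change against chow differed between H, HC and HK in the limma F test. The adjusted p was 2.09e-06 for Scd1, 2.28e-05 for Cfd, 2.43e-05 for Cyp2b10, 0.00032 for Slc35f2, 0.00403 for Apoa4, 0.00471 for Ces2a, 0.00779 for Hamp2, 0.00997 for Cd36, 0.0167 for Cyp3a25, 0.0199 for Bdh2, 0.0206 for Usp18, 0.0344 for Slc39a4 and 0.0377 for Cyp3a11. Bdh2 and Usp18 are 2 of these that were not called at 2-fold, and Usp18 averaged 8.94 ± 4.03 TPM in H, 5.84 ± 0.95 TPM in HC, 17.1 ± 2.43 TPM in HK and 5.39 ± 1.84 TPM in N (SD, n = 4 each).

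Among 344 groups of 4 libraries of the named genes, 20 held a library far from the other 3, by Dixon's ratio of the gap to the whole range at its 95% critical value. Chance alone gives about 1 in 20 groups. In H the ratio was 0.830 for replicate 1 in Acat1 (188.6 TPM, lowest), 0.910 for replicate 2 in Cyp2b10 (1.39 TPM, highest), 0.959 for replicate 3 in Cyp7b1 (92.1 TPM, lowest), 0.876 for replicate 3 in Slc39a4 (11.1 TPM, highest) and 0.846 for replicate 4 in Nr1d1 (50.1 TPM, highest). In HC it was 0.897 for replicate 1 in C4b, 0.8293 for replicate 1 in Gstp1 and 0.886 for replicate 1 in Slc22a7, 0.834 for replicate 2 in Cpt1a, and, for replicate 4, 0.913 in Dbp, 0.890 in Hp and 0.876 in Pdia4. In HK it was 0.890 for replicate 1 in Fasn, 0.900 for replicate 1 in Saa2 and 0.842 for replicate 1 in Slc10a1, and 0.919 for replicate 3 in Gstm1 and 0.841 for replicate 3 in Rarres1. In N it was 0.899 for replicate 1 in Acaca, 0.860 for replicate 1 in Rarres1 and 0.922 for replicate 3 in Hadh. Saa2 in HK replicate 1 stood at 161 TPM, against 17.3 to 21.7 TPM in the other 3 HK libraries, and Dbp in HC replicate 4 at 83.4 TPM, against 18.1 to 20.8 TPM in the other 3 HC libraries.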

How the results depend on the processing

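All 136 calls, 44 shared genes, 17 calls that differed between regimens and 60 calls without overlap were recomputed in the alternatives that apply to them. With a pseudocount of 0.1 there were 207 calls (137 higher, 70 lower), with one of 5 there were 78 (54 higher, 24 lower) and 6 that differed between regimens, and with library quality weights 207 (76 lower), 104 shared genes and 57 that differed. Without a filter on low values 22 genes were shared and 10 calls differed, and without the 4 libraries above 33% in their 20 highest genes 18 were shared. The cause was not tested. With 12 fat-fed libraries as 1 group there were 111 calls. Leaving out 1 library gave 102 to 173 calls (57 to 128 higher, 35 to 55 lower), 19 to 52 shared genes, 9 to 19 that differed and 58 to 97 without overlap. Of 80 named genes that passed, 40 passed in all 27 alternatives, and no gene that passed changed sign. Acacb, which did not pass, had a log2 fold change of 0.0204 with quality weights and between -0.445 and 0.0726 with 1 library left out (0.0179 without N replicate 2), against -0.18 with all.

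Same-numbered libraries did not deviate together, since 4 of 24 pairs had r over 0.1 (range -0.58 to 0.39) and 7 of 48 comparisons put a library closest to its own number. Some libraries of different numbers and groups did, with r of 0.51 for H replicate 1 and N replicate 3. Others deviated in opposite directions, with r of -0.51 for HK replicate 4 and N replicate 1. What these libraries have in common was not tested. With the replicate block there were 127 calls (85 higher, 42 lower), 31 shared genes and 9 calls that differed between regimens.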
